A study of Drosophila melanogaster with 2 samples.

Results

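The 4 genes described here, *kirre*, *rst*, *sns* and *hbs*, encode the immunoglobulin-superfamily adhesion proteins of the Irre cell recognition module, and they are 4 of 13945 protein-coding genes on the main chromosome arms. They were chosen by name, after the number of reproducible Zfh2 peaks at *kirre* had been seen in these data, so the peak counts and signals below are given as a description and are not tested. Every deposited call with its summit in the body of a gene or within 1 kb of it was assigned to that gene. This gave 10 of 4344 peaks in the IDR list, which the authors derived from the relaxed lists (IDR is the irreproducible discovery rate). It also gave 95 of 30000 relaxed calls of the pooled replicates, 85 of 30000 relaxed calls of replicate 1 and 104 of 29690 relaxed calls of replicate 2. Of all pooled calls, 4344 had a signal at or above the lowest in the IDR list, and 4 of these lay outside IDR intervals. The IDR list is thus close to the pooled list cut by signal, and a peak in it need not rank alike in both replicates.

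Chromatin immunoprecipitation followed by sequencing was done on embryos of a transgenic *Drosophila melanogaster* line that stably expresses Zfh2, a zinc finger and homeodomain protein, with eGFP at its C terminus. The precipitating antibody recognised GFP, per the sample descriptions, and the antibody field of the labels names the target, zfh2. Both libraries came from whole embryos of pooled sex, 0 to 24 hours old, sheared by sonication to 200 to 800 bp, and they are biological replicates 1 and 2 of the only group. Both carry the same insertion, libraries from untagged flies were not analysed here, and every value is an average over all tissues and embryonic stages. A site bound in few cells, such as the founder cells of muscle, cannot be told apart here from a site bound weakly in many.

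In *Drosophila*, Kirre (also called Dumbfounded) and Rst (Roughest) are related to vertebrate Neph1, and Sns (Sticks and stones) and Hbs (Hibris) to vertebrate nephrin. In the embryo Kirre and Rst act on muscle founder cells, and Sns, with Hbs, on the fusion-competent myoblasts that attach to them. The extracellular domains bind across the cell contact, and the cytoplasmic tails recruit adaptors that build an actin focus from which the membranes fuse. The same proteins sort cells in the pupal eye and form the filtration diaphragm of nephrocytes.

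Peaks of Zfh2-eGFP were found at 1 of the 4 genes. *kirre* (FBgn0028369, dm6 X 2740384 to 3134532, plus strand, 394 kb) carried 10 IDR peaks, and *rst*, *sns* and *hbs* carried 0 each. Over all protein-coding genes, 33.4% had 1 or more IDR peaks, and 0.0287% (4 genes) had 10 or more. The other 3 with so many, named here after their counts were seen, were *CG1677* with 14 in 124709 bp, *sbb* with 10 in 79099 bp and *CHES-1-like* with 10 in 27048 bp. *kirre* is thus the longest of the 4 and holds the fewest peaks per length among them, 0.252 per 10 kb against 1.10, 1.23 and 3.44. The signal in the peak lists is the authors' own score for each peak, which has no fixed unit and serves here to rank peaks within a list. Over all IDR peaks it spanned 64.9 to 2950.7 (median 113.1), and over those at *kirre* it spanned 67.8 to 281.2 (median 128.7).

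The 3 strongest of the 10 peaks lay near the 5′ end of *kirre*, each at a promoter of another gene or inside another gene. The summit at X 2744205 had a signal of 281.2, rank 452 of 4344, and lay 129 bp upstream of a transcription start site (TSS) of *Syx4*, which encodes a syntaxin of the membrane fusion machinery. That summit is outside the body of *Syx4* and overlaps *kirre* alone. The summit at X 2743293, 912 bp away, had a signal of 276.8, rank 481, and lay 335 bp upstream of a *Syx4* TSS. *Syx4* is read from the minus strand and overlaps the start of *kirre*. The summit at X 2786739 had a signal of 273.7, rank 491, and lay in an intron of *CG32795*, a gene nested in *kirre*, 2583 bp from its TSS. A further summit in *CG32795*, at X 2787520, had a signal of 161.8, rank 1257. The fifth, at X 2919967, had a signal of 185.9, rank 988, and lay 152 bp from a TSS of *CG3588*, another nested gene.

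The other 5 peaks lay in the distal part of the gene and were weaker. At X 3134748 just past the annotated end of *kirre*, a peak of signal 86.1, rank 3055, had its summit 122 bp upstream of *N*, which encodes the Notch receptor. The remaining 4 peaks lay in *kirre* introns, outside the bodies of other genes and not within 500 bp of any TSS. The summit at X 3097246 had a signal of 95.6, rank 2678, and lay 2304 bp upstream of an internal *kirre* TSS. Those at X 2993291, X 3025719 and X 3086058 had signals of 72.8, 67.9 and 67.8, with ranks of 3799, 4138 and 4144. By place, the 4 peaks at promoters of other genes had a median signal of 231.4, the 2 inside *CG32795* a median of 217.8, and the 4 in *kirre* introns away from other genes and from promoters a median of 70.3. All 4 of these intronic peaks were below the median of the whole list, and all 5 peaks near *Syx4*, *CG32795* and *CG3588* were above it.

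**Figure D1:**
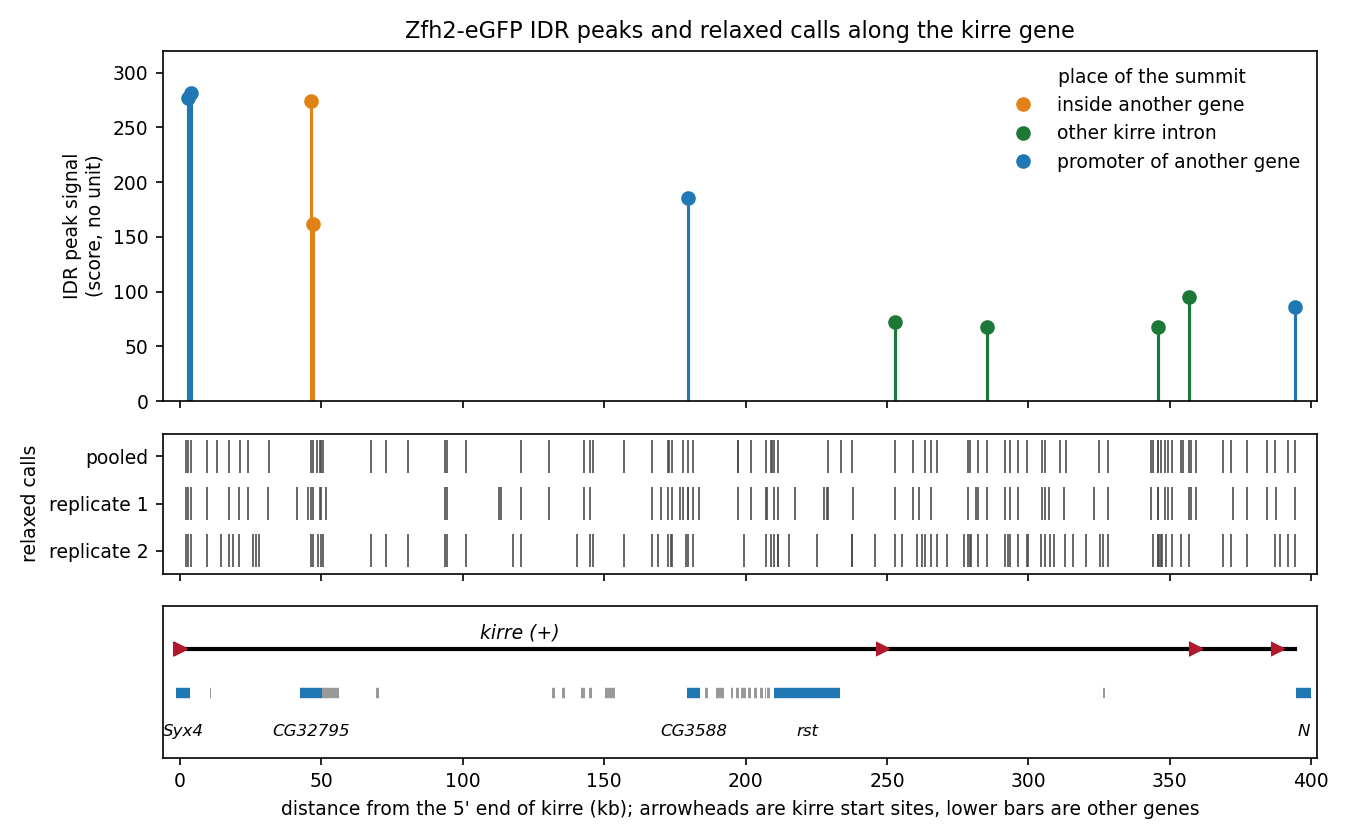
Signal of the 10 IDR peaks along kirre (top, a score with no unit), the positions of the relaxed calls of the pool and of each replicate (middle), and the gene with its start sites and the genes that lie in or beside it (bottom). The horizontal axis is the distance in kb from the 5′ end of kirre; the 5 peaks within 180 kb of that end have signals from 161.8 to 281.2, and the 5 beyond 250 kb from 67.8 to 95.6.

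The sequences of 5 summit windows from *kirre* are printed because they stand for the places just described, and because 2 of them hold a searched word. Each is 101 bases of the plus strand of X, centred on the summit and taken from the RefSeq Release 6 genome, whose gene coordinates equal those of the annotation used here for 17680 of 17682 shared gene names. The windows are chrX:2744155-2744255 for *Syx4*, chrX:2786689-2786789 for *CG32795*, chrX:2919917-2920017 for *CG3588*, chrX:3097196-3097296 for the *kirre* intron and chrX:3134698-3134798 for *N*. Capitals mark a match to a searched word on either strand.
Syx4 promoter: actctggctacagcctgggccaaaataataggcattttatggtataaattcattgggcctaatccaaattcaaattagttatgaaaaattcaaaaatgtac
CG32795 intron: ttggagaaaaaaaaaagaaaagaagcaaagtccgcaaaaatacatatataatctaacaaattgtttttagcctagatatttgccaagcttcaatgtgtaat
CG3588 promoter: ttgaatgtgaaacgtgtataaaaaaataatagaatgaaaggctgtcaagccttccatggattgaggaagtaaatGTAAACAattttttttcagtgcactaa
kirre intron: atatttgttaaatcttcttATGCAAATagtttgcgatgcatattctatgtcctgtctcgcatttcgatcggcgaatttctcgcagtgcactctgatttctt
N promoter: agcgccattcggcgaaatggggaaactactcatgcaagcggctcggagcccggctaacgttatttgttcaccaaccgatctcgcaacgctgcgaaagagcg

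The windows differed in base composition. Guanine and cytosine made up 32.7% of the *Syx4* promoter window, 27.7% of the *CG32795* window, 30.7% of the *CG3588* window, 37.6% of the *kirre* intron window and 56.4% of the *N* window. The *N* window was the richest of the 10 at *kirre*, and 98.1% of IDR windows had an equal or lower share. The poorest, at X 2787520 in *CG32795*, had 23.8%, a share that 4.6% of IDR windows did not exceed. The median over the 10 windows was 31.7%, and over all 4344 IDR windows it was 36.6%.

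Few of the 17 fixed words searched on both strands of these windows were found. The words and the share of all IDR windows with each were TATCGATA (the DNA replication-related element, 4.01%), GGTCACAC (2.14%), TGTTTAC (forkhead, 3.48%), ATTTGCAT (octamer, 1.20%), ATAAATCA (1.01%), GATAAG (5.96%), TGACTCA (1.08%), GAGAGAG (1.10%), CACACACA (1.01%) and CAGGTAG (Zelda, 0.483%). The homeodomain words were TAATTA (6.98%), CAATTA (9.16%) and TTAATTAA (1.13%), the last of which contains the first. The E-box words were CAGCTG (5.57%), CAGGTG (3.34%), CACGTG (1.20%) and CATATG (3.48%). At *kirre*, TGTTTAC matched on the minus strand in the *CG3588* promoter window, and ATTTGCAT matched on the minus strand in the *kirre* intron window. The other 8 windows held none of the 17, and over the whole list 40.4% of windows held at least 1. No *kirre* window held a homeodomain word within 50 bp of its summit, which says only that these letters are not in those bases. Of all possible words of 8 bases, the run AAAAAAAA was in 3 of the 10 windows, against 6.35% of all IDR windows, and no other was in more than 2.

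No IDR peak lay at a start of *kirre* itself. The gene has 6 annotated start positions, and a promoter summit was defined as one within 500 bp of a TSS. The nearest IDR summits were 2488 bp and 2909 bp from the 2 starts at the 5′ end, 4240 bp from the start at X 2989051, 2304 bp and 2336 bp from the starts at X 3099550 and X 3099582, and 6109 bp from the start at X 3128639. An own-promoter IDR peak was present at 24.6% of protein-coding genes and at 30.1% of the 83 genes of 100 kb or longer. In the relaxed lists, 1 of 84 pooled calls lay at a *kirre* start, 32 bp upstream of X 3099550, with a signal of 23.2 and rank 15919. Replicate 1 had a call of signal 16.0 there, 52 bp upstream, and the nearest call of replicate 2 was 2383 bp away. The 4 promoter peaks at *kirre* were 40.0% of its IDR peaks, and the other 6 were intronic. Over the whole list 64.5% of IDR summits were at promoters and 26.1% in introns. These shares were not adjusted for the long introns of *kirre*, and a summit inside a gene cannot be intergenic.

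Few of the genes inside *kirre* had IDR peaks. Of 22 genes that lie wholly within it, 21 of them protein-coding, 2 had an IDR peak in the body or within 1 kb, beside 33.4% of all protein-coding genes. These were *CG32795* with 2 and *CG3588* with 1. Most of the 22 are shorter than the median of all protein-coding genes, 2166 bp, and shorter genes offer less sequence in which to meet a peak. The eye pigment transporter gene *w*, next to *CG32795*, had 0 IDR peaks and 3 pooled relaxed calls. Beyond the 3′ end, *N* had 3 IDR peaks, of which the one 122 bp from its start also fell within 1 kb of *kirre*.

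The 10 *kirre* peaks were seen in both replicates, and the strength of each peak differed between them to varying degrees. All 10 summits lay inside a call of replicate 1 and a call of replicate 2, as did 98.4% of all IDR summits, a share that is high because IDR peaks are drawn from these same calls. At the *Syx4* summits, replicate 1 had signals of 177.4 and 153.0, and replicate 2 had 105.6 and 120.4. At the *CG32795* summits the replicates were close, with 136.6 and 139.0 at the stronger and 82.6 and 81.4 at the weaker. The *CG3588* promoter had 114.2 in replicate 1 and 74.1 in replicate 2, and the *N* promoter had 52.0 and 37.3. The scores of the replicates are on scales of their own, and over all IDR peaks found in both the median ratio of replicate 1 to replicate 2 was 1.18, with 5th and 95th percentiles of 0.536 and 2.34. The median at *kirre* was 1.17.

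Among the 4 peaks in *kirre* introns away from other genes and from promoters, 2 were much alike in the replicates and 2 were not. At X 2993291 the signals were 36.1 in replicate 1 and 36.5 in replicate 2, and at X 3097246 they were 50.2 and 46.9. At X 3025719 replicate 1 had 18.5, rank 11732, and replicate 2 had 48.8, rank 2443. The ratio there, 0.379, was one that 1.4% of IDR peaks did not exceed. At X 3086058 the order was the opposite, 46.1 in replicate 1 and 23.5 in replicate 2, a ratio of 1.96. This ratio was less extreme, inside the 5th and 95th percentiles of 0.536 and 2.34, and 89.3% of IDR peaks had one no higher. The 2 weakest peaks of the gene were thus those at which the replicates differed most.

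**Figure D2:**
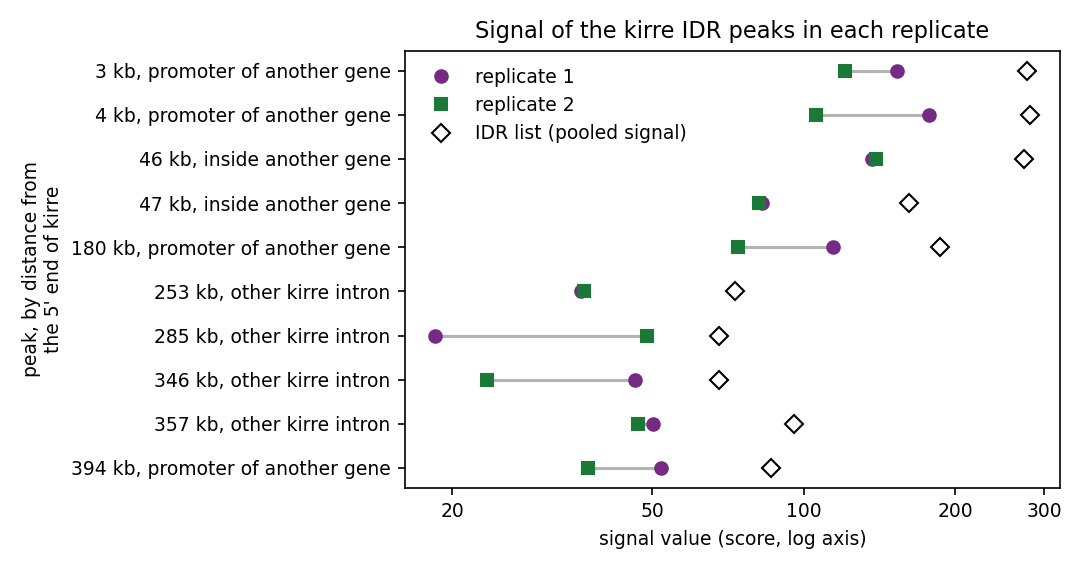
Signal (score, log axis) of each of the 10 kirre IDR peaks in replicate 1 (circles), replicate 2 (squares) and the IDR list (diamonds, the pooled signal), in order along the gene. The replicates lie close at 46 to 47 kb and far apart at 285 kb, where replicate 1 had 18.5 and replicate 2 had 48.8.

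When each replicate was taken alone, with as many of its strongest calls as there are IDR peaks, replicate 1 had 8 calls at *kirre* and replicate 2 had 10. The 5 places at *Syx4*, *CG32795* and *CG3588* were among them in both, as were the *N* promoter and the intron at X 3097246. Of the other intronic peaks, the one at X 3086058 was among the calls of replicate 1, and those at X 3025719 and X 2993291 were among the calls of replicate 2, which also had one at X 3019861 outside the IDR intervals. Neither list had a call within 500 bp of a *kirre* TSS, and neither had a call at *rst*, *sns* or *hbs*.

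Along the gene the 10 summits were unevenly spaced. Close pairs stood 912 bp apart at *Syx4* and 781 bp apart in *CG32795*, and the other 7 gaps ran from 11.2 kb to 132 kb. The longest, 132447 bp between X 2787520 and X 2919967, was one of the longer gaps on the X arm, where 39 of 829 gaps between neighbouring IDR summits (4.70%) were at least as long. The next longest, 73.3 kb between the *CG3588* promoter and X 2993291, contains the whole of *rst*. The median gap was 37.5 kb at *kirre* and 9.10 kb on the X arm. By intron of the longest transcript (FBtr0309501, 11 exons), 4 peaks lay in intron 2, which is 122 kb long, 2 in intron 3 (132 kb) and 3 in intron 5 (118 kb). Intron 6, of 16.0 kb, had none, and the tenth peak lay beyond the last exon.

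The relaxed lists are input to the IDR procedure and hold true sites and background together. *kirre* had 84 pooled relaxed calls, 75 in replicate 1 and 94 in replicate 2, and 1 or more calls were present at 73.5%, 74.3% and 73.7% of protein-coding genes in those lists. The 84 pooled calls spanned signals of 15.7 to 281.2, and their median of 25.4 stood beside 24.1 for the whole pooled list. Of the 84, 64 (76.2%) were intronic, 12 (14.3%) were at promoters and 7 (8.33%) in coding exons. The shares over the whole pooled list were 37.7%, 32.8% and 10.7%. Introns 2, 3 and 5 are 122, 132 and 118 kb of the 394 kb of *kirre*, so these shares cannot show a preference for introns. The calls were densest in intron 5, at 2.80 per 10 kb pooled, 2.21 in replicate 1 and 3.48 in replicate 2. In introns 2 and 3 the pooled density was 1.81 and 1.82 per 10 kb.

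Just outside the IDR threshold, the strongest pooled call at *kirre* had a signal of 58.6, rank 4886, at X 3022657 in intron 5, with 35.2 in replicate 1 and 25.2 in replicate 2. The next were 49.9 and 48.8, at X 2834793 and X 2834168, in the longest gap between IDR peaks. Just inside it were the peaks of 67.8 and 67.9 already given, and the lowest signal in the IDR list was 64.9. Of the 84 pooled calls, 10 (11.9%) lay in IDR intervals, and of all pooled calls 14.8% did. Both replicates had a call at 39 of the 84 pooled summits (46.4%), and at 44.5% of all pooled summits. Of the 75 calls of replicate 1, 40 (53.3%) stood within 200 bp of a replicate 2 summit, beside 44.6% over the whole list. In the other direction, 40 of the 94 calls of replicate 2 (42.6%) stood as near a replicate 1 summit, beside 44.9% over the whole list.

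Set against length, the 10 peaks of *kirre* were not a dense cluster. The density was 0.252 per 10 kb of body and margins, below that of the X arm (0.353) and of the main arms together (0.324). Long genes as a class had fewer, with a median of 0.0678 per 10 kb over the 83 protein-coding genes of 100 kb or longer, of which 53.0% had 1 or more IDR peaks. Among these 83, 20 (24.1%) had a density at or above that of *kirre*. Pooled relaxed calls gave 2.12 per 10 kb at *kirre*, 2.08 on the X arm and 1.18 as the median of the long genes. Of the 4 protein-coding genes longer than *kirre*, named here after their counts were seen, *CG17684*, *lovit*, *Pzl* and *Myo81F* each had 0 IDR peaks. Whether reads can be mapped along these genes as well as along *kirre* was not examined.

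**Figure D3:**
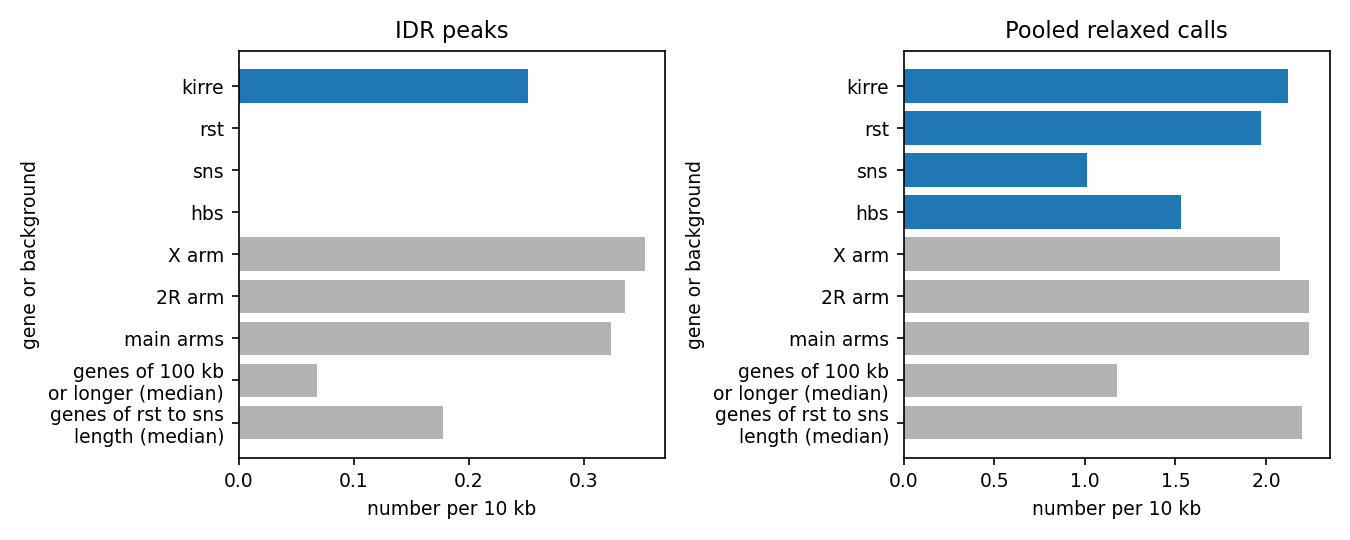
IDR peaks (left) and pooled relaxed calls (right) per 10 kb at the 4 genes (blue) and in backgrounds (grey): chromosome arms as a whole and the medians of 2 length classes of protein-coding genes. In IDR peaks kirre (0.252) stands between the X arm (0.353) and the long genes (0.0678), and rst, sns and hbs are at 0.

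The long genes whose IDR density was most like that of *kirre* were *jing*, which encodes a zinc finger transcription factor, with 0.246 per 10 kb, *sm*, which encodes an RNA-binding protein, with 0.259, *klar*, needed for the positioning of nuclei and organelles, with 0.276, and *Msp300*, a nesprin of muscle nuclei, with 0.277. The likeness is in this density alone, over the 83 genes of 100 kb or longer. Each of the 4 had 3 peaks in 106 to 120 kb, and each had at least 1 within 500 bp of an own TSS, 2 in the case of *klar*. *kirre*, with 10 peaks, had 0.

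*rst* (FBgn0003285, dm6 X 2950399 to 2973834, minus strand, 23.4 kb), the paralogue of *kirre* that acts beside it in founder cells, lies wholly inside *kirre* on the opposite strand. Its calls therefore count for both genes, and a call there cannot be assigned to either. It had 0 IDR peaks, and 51.1% of the 618 protein-coding genes with lengths from that of *rst* to that of *sns* had 1 or more. The nearest IDR summits were 19.5 kb upstream of its TSS (signal 72.8, in *kirre*) and 30.4 kb downstream of its 3′ end (signal 185.9, the *CG3588* promoter). At *rst* the pooled relaxed list had 5 calls, that of replicate 1 had 6 and that of replicate 2 had 5. The pooled signals ran from 16.3 to 37.5, all below the lowest IDR signal of 64.9.

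The strongest pooled call at *rst*, of signal 37.5 and rank 8166, had its summit at X 2950397, at the 3′ end of the gene, with 12.2 in replicate 1 and 25.6 in replicate 2. The next, of signal 30.7 at X 2951932, lay in the 3′ untranslated region, with 22.3 in replicate 1 and 8.6 in replicate 2. The replicates thus had their strongest *rst* calls at different summits, 25.6 at X 2950373 in replicate 2 and 22.3 at X 2951966 in replicate 1. The start of *rst* had a pooled call 215 bp upstream, of signal 16.4 and rank 27896. That summit lay in no call of either replicate. Of the 5 pooled calls, 2 lay in calls of both replicates.

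*sns* (FBgn0024189, dm6 2R 8798489 to 8856091, plus strand, 57.6 kb), which encodes the nephrin-like receptor of fusion-competent myoblasts, had 0 IDR peaks and 6 relaxed calls in each of the 3 relaxed lists. Pooled signals ran from 16.8 to 25.1, those of replicate 1 from 10.7 to 22.1 and those of replicate 2 from 7.9 to 15.4. The medians of the whole lists were 24.1, 16.0 and 11.7, so 5 of the 6 pooled calls and 4 of the 6 replicate 1 calls were below the median of their list, and 1 of the 6 replicate 2 calls was. All 6 pooled calls were intronic, 3 of them in intron 1. The summit at 8814680, of signal 25.1 and rank 14079, was the only one of the 6 in calls of both replicates, with 10.7 and 11.9. The density of 1.01 pooled calls per 10 kb was at or below that of 79.4% of the 618 genes in its length class, whose median was 2.20. The nearest IDR summits were 46.8 kb upstream of the TSS (signal 96.2) and 35.4 kb downstream (signal 75.5, at the *CG8272* promoter).

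*hbs* (FBgn0287864, dm6 2R 15011396 to 15042134, plus strand, 30.7 kb), whose protein binds the same partners as Sns, had 0 IDR peaks, 5 pooled calls, 4 in replicate 1 and 4 in replicate 2. Pooled signals ran from 17.9 to 28.1, with the highest at rank 11838. All 5 pooled calls lay in intron 1, which is 24.1 kb long, between 17.0 and 23.4 kb from the 5′ end. The highest, at 15030079, was the only one in calls of both replicates, with 18.0 in replicate 1 and 10.8 in replicate 2. At the others the pooled signal rested on replicate 1 or on neither replicate's own calls. The nearest IDR summits were at the *CG7639* promoter 19.1 kb upstream (signal 323.4) and between genes 12.3 kb downstream (signal 99.3).

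**Figure D4:**
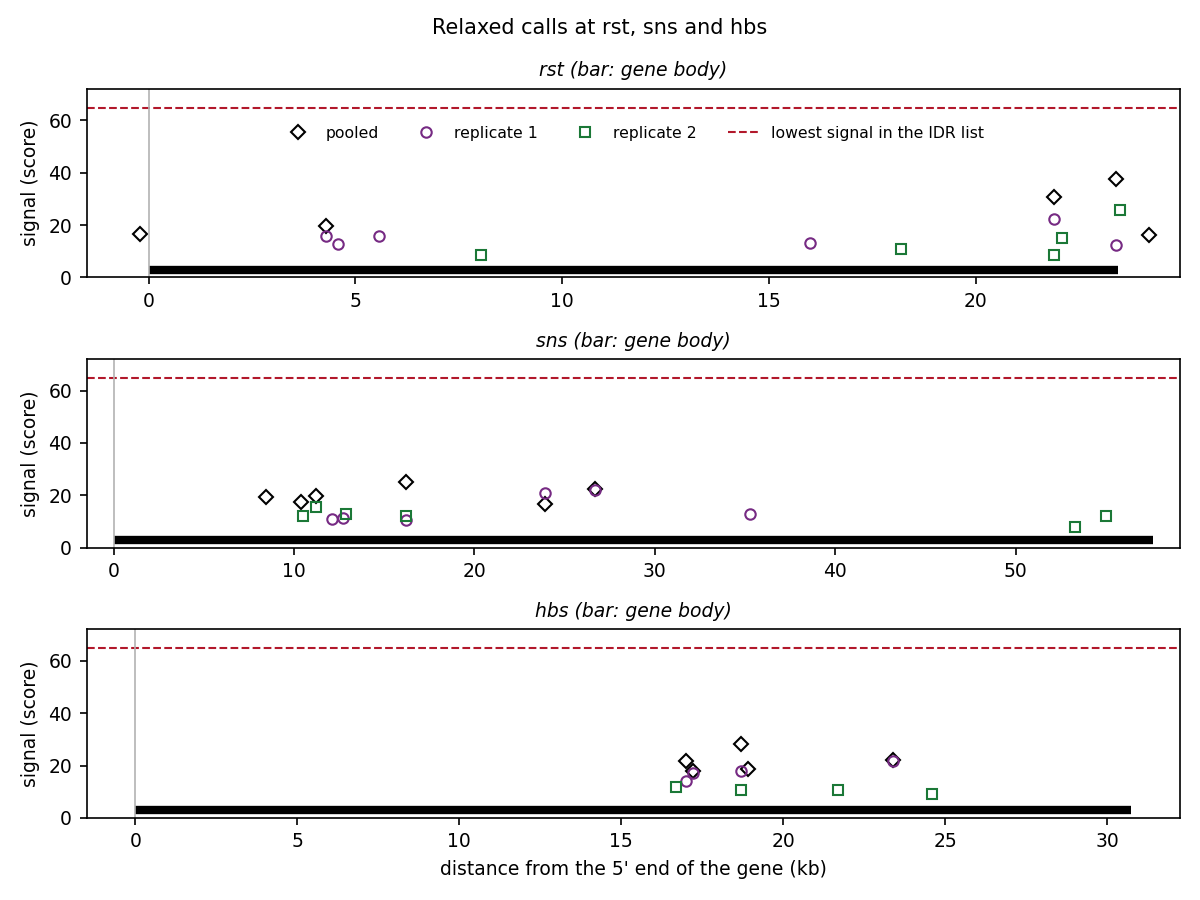
Signal (score) of every relaxed call at rst, sns and hbs against the distance in kb from the 5′ end of the gene, for the pooled replicates (diamonds), replicate 1 (circles) and replicate 2 (squares). The black bar is the gene body and the dashed line the lowest signal in the IDR list, 64.9; the highest call of any of the 3 genes is 37.5.

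Side by side, pooled relaxed calls were 2.12 per 10 kb at *kirre*, 1.97 at *rst*, 1.53 at *hbs* and 1.01 at *sns*. In replicate 1 the values were 1.89, 2.36, 1.22 and 1.01, and in replicate 2 they were 2.37, 1.97, 1.22 and 1.01. With the 1 kb margins, *hbs* and *sns* were the lower 2 in all 3 lists, and the order of *kirre* and *rst* changed between the replicates. The pooled place of *rst* depends on those margins. Within gene bodies alone it had 2 pooled calls in 23.4 kb, *hbs* 5 in 30.7 kb and *sns* 6 in 57.6 kb, so *rst* was then the lowest per length. In the replicates the body of *rst* held 6 and 4 calls. The share of pooled summits in calls of both replicates was 46.4% at *kirre*, 2 of 5 at *rst*, 1 of 5 at *hbs* and 1 of 6 at *sns*, against 44.5% over all pooled calls.

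Among genes that act with the Irre proteins in myoblast fusion or in the same module, IDR peaks were common, and most of those genes had one at an own start. Of a list of 23 such genes, all found in the annotation (*Arf51F* under the name *Arf6*), 14 (60.9%) had an IDR peak, beside the 33.4% of all protein-coding genes. Within 500 bp of an own TSS, 12 of the 23 had one, beside 24.6% of all protein-coding genes. The genes of the list had a median length of 7519 bp and a median of 1 IDR peak, and all protein-coding genes had medians of 2166 bp and 0. The list was not tested, and longer genes offer more sequence in which to meet a peak.

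Genes of the actin machinery and its adaptors, which act downstream of the receptors, were among those with the strongest peaks and among those with 0. *mbc*, which encodes a Rac exchange factor, had 2 peaks, the stronger with a signal of 373.6, rank 248, and its nearest TSS was that of the neighbour *Nup98-96*. *Hem*, a subunit of the SCAR complex, had a peak of 200.9 shared with the promoter of *IleRS*. The adaptor gene *dock* had 185.2, 50 bp upstream of its TSS. *WASp*, an activator of Arp2/3, had 177.5, and *Vrp1*, its partner, had 174.3, at 67 bp and 100 bp upstream of their starts. *pyd*, which encodes a ZO-1 scaffold that binds the Irre proteins, had 5 peaks, the highest of 155.4 at 95 bp upstream of a start. *cindr*, an adaptor of the same contacts, had 3, with a highest of 133.3. The muscle regulator gene *Mef2* and the Arf exchange factor gene *siz* had 4 each, with highest signals of 116.9 and 93.2, and *jeb*, the ligand of Alk, had 1 of 84.6 in an intron. The list genes with 0 IDR peaks were *Ced-12*, *Rac1*, *Rac2*, *blow*, *SCAR*, *lmd*, *sing*, *CadN* and *Arf6*. Of these, *Rac1*, *Rac2* and *SCAR* belong to the actin machinery too. *Ced-12* and *lmd*, the latter a regulator of fusion-competent myoblasts, also had 0 pooled relaxed calls.

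Of 20 other adhesion and guidance genes of the immunoglobulin superfamily, 7 (35.0%) had an IDR peak, beside 33.4% of all protein-coding genes. At an own TSS 3 of the 20 had one, beside 24.6% of all protein-coding genes. The 20 had a median length of 38989 bp, against 2166 bp for all protein-coding genes. Among the 618 protein-coding genes with lengths from that of *rst* to that of *sns*, 51.1% had an IDR peak. This list was not tested. The highest signals were 209.6 at *side*, a gene of motor axon guidance, 136.5 at *ed*, which encodes Echinoid, 122.2 at *tutl* and 114.5 at *Fas3*. *Nrg* had 96.3, the netrin receptor gene *fra* 90.8, and the Slit receptor gene *robo1* 84.3 at its TSS. The strongest peaks of *side*, *ed*, *Fas3* and *Nrg* lay in introns.

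**Figure D5:**
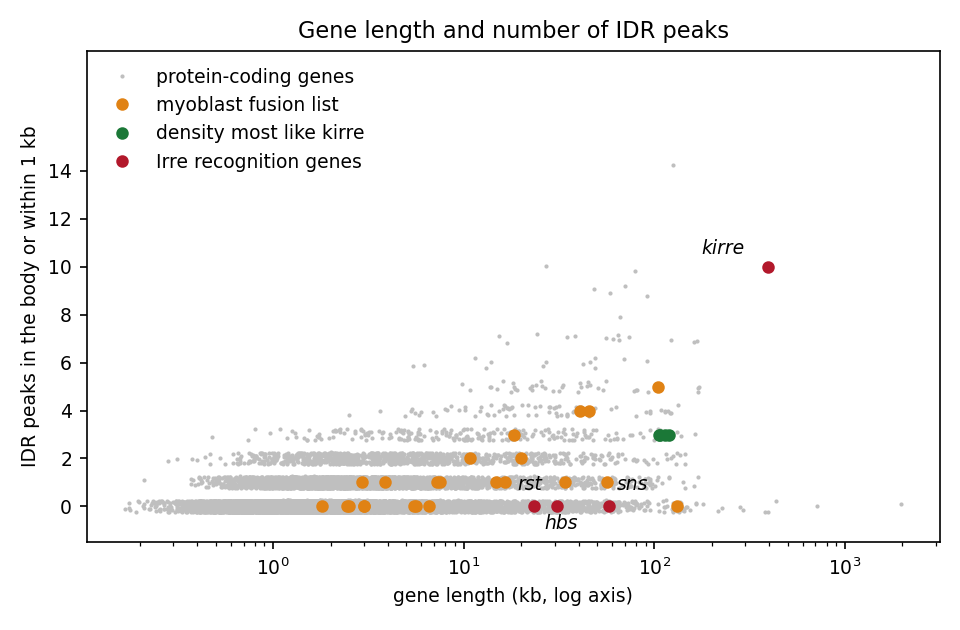
Number of IDR peaks in the body or within 1 kb against gene length (kb, log axis) for 13945 protein-coding genes (grey, moved at random in the vertical direction to separate points), with the myoblast fusion list, the 4 long genes with the density most like kirre, and the Irre recognition genes. kirre is at 10 peaks and 394 kb, to the right of every other gene with an IDR peak, and rst, hbs and sns are at 0.

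The tagged gene offers no check of the labels in this assay, because a peak list does not show expression. *zfh2* itself had 0 IDR peaks, with 16 pooled relaxed calls of at most 59.1, 14 calls in replicate 1 and 25 in replicate 2.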

How the data were processed

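The 2 libraries form 1 group, so no groups were compared and no test was run. Per the deposited file descriptions, the authors derived a relaxed list for each replicate from its alignment and a control alignment, a relaxed list for the pooled replicates, and the IDR list from these 3. Column 7 of each deposited list holds the caller's signal, a score, and column 9 holds −log10 of a q-value, as deposited by the authors, which was not used. Which aligner and caller were used, and in which versions, is not given in the sources used here. Read numbers were not used here, so depth is unknown. The relaxed lists of the pool and of replicate 1 hold 30000 calls each and that of replicate 2 holds 29690, and they include background, so their number is no measure of binding. The 4 lists on dm3 were not used, because no dm3 annotation was used here.

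Summits were the interval start plus the offset column, in 1-based dm6 coordinates. Genes came from Ensembl release 115. A call belonged to a gene when its summit lay in the body or within 1 kb, and could belong to several. Promoter meant within 500 bp of a TSS; other summits were placed in untranslated regions, then coding exons, noncoding exons, introns or between genes, in that order. Density is the number of calls over body plus margins. Words were sought within 50 bp of summits. Python 3.11.15, numpy 2.4.6, pandas 2.3.3 and matplotlib 3.10.9 were used, and the counting was tested on simulated summits. Alternatives were other margins, promoter widths, windows and list sizes, and each replicate alone. The members, the gene lists, the words and the alternatives were chosen with earlier results of these data known. Genes named in the text are the 4 members, genes with the TSS nearest to their IDR peaks, up to 10 genes per list with the highest signal, the 4 long genes of most similar density, and *zfh2*; others are marked as named after their values were seen or are neighbours on the map.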

Additional observations from a re-analysis of the deposited data

How the results depend on the processing

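Of 107 recomputed values, 85 stayed within 1.5 times the reported one or stayed at 0, and 22 moved. All are counts, densities or gaps, which cannot change sign, so a reversal was not possible. Many of the 85 are values of 0 that stayed at 0, so the tally is no measure of robustness. *rst*, *sns* and *hbs* had 0 IDR peaks under every alternative run, and *kirre* had 0 at an own TSS under every promoter width and list tried. In the stronger 2172 IDR peaks, *kirre* kept 5 (0.126 per 10 kb), the myoblast fusion list had 8 genes with a peak and the immunoglobulin superfamily list 4 of 20, while 20.6% of all protein-coding genes then had a peak. With gene bodies only, the fusion list had 7 genes with an IDR peak and the immunoglobulin superfamily list 6 of 20. Of all protein-coding genes, 11.7% then had an IDR peak, and *rst* had 2 pooled calls. With margins of 5 kb, *rst* had 8 pooled calls and 9 in replicate 2. Among the strongest 10000 calls of each list (pooled, replicate 1, replicate 2), *kirre* had 25, 19 and 26, *rst* 1, 1 and 2, *sns* 0, 2 and 1, and *hbs* 0, 1 and 0. These fewer calls follow from the shorter lists. Words were in 0 *kirre* windows at 25 bp on each side and in 4 at 100 bp.

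The strongest calls of a single replicate, leaving out the other, gave *kirre* 8 to 10 peaks and 0.202 to 0.252 per 10 kb, 4 at promoters of any gene in both, a longest gap of 132433 to 166111 bp, 14 fusion list genes in both and 5 to 8 immunoglobulin superfamily genes. No paired analysis was possible because the 2 replicates belong to 1 group. With depth unknown, a gene without an IDR peak had no peak that passed this threshold, which does not show that binding is absent. Whole embryos and a tagged transgene limit the values to averages of the fusion protein, and no control values were used here.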
